A study of Gallus gallus with 9 samples.

Results

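The comparison described here sets cultured chicken primordial germ cells (PGCs) kept for 24 h without basic fibroblast growth factor (-bFGF) against the same kind of cells before withdrawal (RAW, 0 h). It covers 6 of the 9 arrays of the series, 3 for each group, which were chosen by their labels. The cells were grown from whole blood of Korean Oge (KO) chicken embryos at stage 14 to 15 (H&H), were mixed between embryos and were grown without feeder cells. The culture medium of RAW cells was knockout Dulbecco's modified Eagle's medium with 7.5% fetal bovine serum, 2.5% chicken serum, GlutaMAX, nucleosides, β-mercaptoethanol, nonessential amino acids and human bFGF at 10 ng/ml, and both groups had been expanded in it. No genetic change was made in either group. The study states that its experiments were repeated 3 times, but the labels do not name the culture behind each array. The p-values here rest on the spread within the groups of all 9 arrays, and that spread may be technical. Withdrawal and 24 h more of culture went together and cannot be told apart. No sort separated the PGCs from other blood cells before culture, and the study describes most blood cells as dying early in it.

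bFGF binds receptor tyrosine kinases of the FGFR family, which signal through RAS, the MAP kinases MEK and ERK, and PI3 kinase. ERK phosphorylates ETS and other transcription factors, and among the genes it switches on are inhibitors that damp its own activity. Chicken PGCs are the precursors of sperm and eggs. They travel in the bloodstream of the embryo to the gonads, and in culture with bFGF they can be expanded for long periods.

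The arrays hold 38535 Affymetrix probe sets, and 19220 of them, those at or above the median level and without the array controls, were tested. They report on 9125 named genes, each taken at its brightest probe set. Values are linear MAS5 intensities, and a change is given as the log2 difference -bFGF minus RAW with its standard error (SE) from limma, n = 3 arrays per group. A gene is said to have risen or fallen when its Benjamini-Hochberg adjusted p was under 0.05. Without bFGF, 1025 probe sets fell (5.33%) and 1038 rose (5.4%), and 4826 had an unadjusted p under 0.05. At the level of genes 547 fell (5.99%) and 623 rose (6.83%). For 35.4% of the genes all arrays of one group lay above all arrays of the other, so such a gap alone is common in these data. Most changes were small: 859 of the 1170 called genes moved by less than 1.5-fold, and 81 moved by more than 2-fold, 53 down and 28 up.

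A call is described as held when it was made again in 6 further fits, each without 1 of the 6 arrays. Of the called genes 281 of the fallen and 248 of the risen held, and so did 75 of the 81 that changed over 2-fold. The count of fallen probe sets was lowest without RAW array 2, at 652, with 588 risen. That of risen probe sets was lowest without -bFGF array 2, at 561, with 692 fallen. Risen probe sets were also over 1.5 times below their full count without RAW array 1 (642), -bFGF array 1 (604) and -bFGF array 3 (592). Correlations of log2 values ran from 0.988 to 0.991 between arrays of a group and from 0.979 to 0.984 between the groups. Array medians lay between 71.3 and 82.3, and the 95th percentile of 744 viral and other non-chicken probe sets, which shows the background, lay between 32.0 and 40.2.

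The germ cell genes DDX4, DAZL, KIT, DND1, TDRD9 and PIWIL1 were far above background on all 6 arrays. Their summed intensity lay between 77172 and 81912 in RAW and between 66518 and 78542 in -bFGF. DAZL, an RNA-binding protein of germ cells, changed by -0.27 ± 0.075, and the other germ cell markers missed the test. The call of DAZL was lost without RAW array 1, 2 or 3 or -bFGF array 2 or 3, up to an adjusted p of 0.122. Of a short list of red cell markers, 5 of 14 were on the array and none reached the level tested, with summed intensities of 154 to 222 in RAW and 87.9 to 174 in -bFGF. A wider red cell list had 12 genes on the array and 3 at the level tested. These were the globin HBE, the membrane anchor ANK1 and HBP1, a transcription factor not specific to red cells. None of the 3 was called, and their differences were all negative, with a median of -0.32. Of the leukocyte markers, 3 of 7 (CD3E, SPI1 and LYZ) lay below the background on all 6 arrays, and the summed level was 495 to 546 in RAW and 426 to 539 in -bFGF. Means in RAW and -bFGF were 93.5 and 123 for PTPRC, 114 and 114 for LCP1 and 177 and 162 for CD74, which missed the test. CSF1R, with means of 96.5 and 49.3, did not reach the level tested. In a wider leukocyte list 1 of the 4 genes tested rose, a call that did not hold. Thrombocyte markers summed to 449 to 515 in RAW and 576 to 658 in -bFGF, and TUBB1, a tubulin of platelets and thrombocytes, rose by 0.65 ± 0.1. Means of the other thrombocyte markers were lower in -bFGF, from 110 to 95.6 for ITGB3, 38.5 to 6.82 for GP9 and 17.5 to 7.20 for F13A1. ITGB3 missed the test, and GP9 and F13A1 did not reach the level tested. Endothelial markers summed to 422 to 463 in RAW and 278 to 329 in -bFGF, and EGFL7, a vessel matrix protein, changed by -1.12 ± 0.2. PECAM1, the other endothelial marker at the level tested, missed the test, with means of 99.2 in RAW and 101.9 in -bFGF. Among those below that level VWF had means of 52.2 in RAW and 54.3 in -bFGF. Means of CDH5, KDR, TEK and TIE1 were lower in -bFGF. In such bulk samples fewer cells of a type and less RNA per cell cannot be told apart.

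Among genes outside the gene tables of the study itself and without overlap between arrays, FOXD3 and HESX1 fell most. FOXD3, a forkhead factor of pluripotent cells and neural crest, had intensities of 500.3, 483 and 551 in RAW and 23.7, 71.7 and 55.3 in -bFGF, a change of -3.49 ± 0.31 (adjusted p = 6.88e-06). HESX1, a homeobox repressor of the anterior neural plate and of pluripotent cells, stood at 834, 911 and 1045 in RAW and 116, 164 and 114 in -bFGF and changed by -2.84 ± 0.14 (adjusted p = 2.78e-08). The -bFGF values of FOXD3 were at or near the background, so the size of its change is uncertain, while those of HESX1 stayed above it. SST1, the chicken somatostatin gene, a peptide hormone that restrains secretion, had 206, 205 and 236 in RAW and 39, 49 and 52.3 in -bFGF and changed by -2.21 ± 0.22, and 1 of its 2 probe sets fell. GRP, which encodes gastrin-releasing peptide, had 204, 195 and 168 in RAW and 65.3, 68.1 and 42.6 in -bFGF and changed by -1.71 ± 0.27. All 6 RAW values of these peptide genes were at least 168 and all 6 -bFGF values at most 68.1, close to the background.

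NPL, a lyase that breaks down sialic acid, stood at 241, 226 and 213 in RAW and 57.9, 51.4 and 53.4 in -bFGF (-2.06 ± 0.17). EPHA1, an ephrin receptor, had 182, 161 and 172 in RAW and 57.4, 32.4 and 38.7 in -bFGF (-2.04 ± 0.23), and FZD8, a receptor for Wnt proteins, had 1787, 2049 and 1912 in RAW and 543, 579 and 588 in -bFGF (-1.75 ± 0.091, adjusted p = 5.12e-08). A lack of overlap was a condition for naming the genes in this paragraph, and FZD8 stayed well above background in -bFGF. The EPHA1 values of 32.4 and 38.7 in -bFGF lay within the range of the background, so the size of its change is uncertain. RFTN2, of the raftlin family, changed by -1.63 ± 0.13, SDR16C5, a retinol dehydrogenase, by -1.51 ± 0.092, the homeobox factor NKX6-2 by -1.45 ± 0.15 and TCERG1L by -1.42 ± 0.15. SDR16C5 had 691, 773 and 677 in RAW and 268, 234 and 251 in -bFGF, so the groups were separated by more than their own ranges. MFAP2, a protein of elastic microfibrils, changed by -2.04 ± 0.51, but its -bFGF arrays ranged from 13.7, below the background, to 86.3. Its call was lost without RAW array 1 or 2, up to an adjusted p of 0.0751.

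The largest rises were smaller than the largest falls. The thyroid hormone deiodinases DIO3 and DIO2, which inactivate and activate the hormone, had 343, 291 and 349 in RAW and 1104, 998 and 1076 in -bFGF for DIO3 and 347, 397 and 378 in RAW and 863, 892 and 955 in -bFGF for DIO2. Their changes were 1.70 ± 0.11 (adjusted p = 3.59e-07) and 1.27 ± 0.089 (adjusted p = 8.26e-07), and every -bFGF array was over 2-fold above every RAW array for both. NR4A2, an orphan nuclear receptor and early response gene, had 196, 180.2 and 235 in RAW and 565, 497 and 455 in -bFGF (1.32 ± 0.14). CHL1, an L1-type neural cell adhesion molecule, had 85.4, 64.2 and 62.6 in RAW and 209, 198 and 180.3 in -bFGF (1.48 ± 0.24), and EDIL3, a secreted integrin ligand, had 119.8, 120.4 and 114 in RAW and 304, 329 and 333 in -bFGF (1.45 ± 0.13, adjusted p = 1.14e-05). A lack of overlap was a condition for naming the genes of this paragraph. The EDIL3 arrays lay between 114 and 120 in RAW and between 304 and 333 in -bFGF. The mean of CHL1 in RAW, 70.8, was under the filter level of 72.4, so it passed the filter through its other arrays. Among the largest falls, the -bFGF means of FOXD3 (50.2), SST1 (46.8), NPL (54.2), EPHA1 (42.8), MFAP2 (52.1) and GRP (58.7) were also under that level. Those genes too passed the filter only through the groups in which they were higher.

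RERGL and RASSF9, both relatives of RAS pathway proteins, rose by 1.28 ± 0.2 and 1.19 ± 0.25. PPP2R2C, a regulatory subunit of protein phosphatase 2A, had 435, 385 and 384 in RAW and 1133, 809 and 786 in -bFGF (1.16 ± 0.19), with the first -bFGF array well above the other 2. ATOH8, a basic helix-loop-helix factor, had 98.4, 105 and 101 in RAW and 228, 239.6 and 204 in -bFGF (1.14 ± 0.16). ACBD7, an acyl-CoA binding protein, rose by 1.27 ± 0.17 and DSEL, a dermatan sulfate epimerase, by 1.2 ± 0.26. The RAW values of DSEL ranged from 87.1 to 221, and 2 of its 3 probe sets rose. SCIN, an actin-severing protein of the gelsolin family, rose by 1.21 ± 0.31, with RAW values from 68.5 to 159. Its call was lost without RAW array 1 or 2 or -bFGF array 2 or 3, up to an adjusted p of 0.096.

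**Figure D1:**
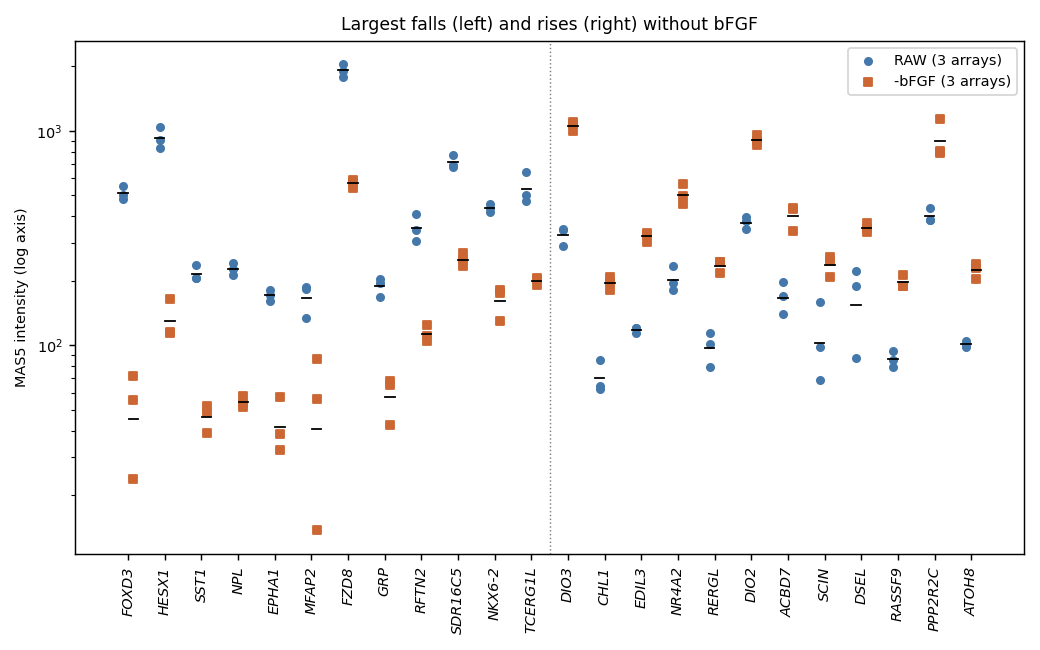
MAS5 intensity (log axis) of the 12 largest falls, on the left, and the 12 largest rises, on the right, among called genes whose arrays did not overlap and that the gene tables of the study do not hold. Circles are the 3 RAW arrays, squares the 3 -bFGF arrays, and bars their geometric means. FOXD3 falls from 483 to 551 in RAW to 23.7 to 71.7 in -bFGF.

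Gene families were described from 101 lists, and in 79 of them 3 or more members were called. The shares to read them against are the 5.99% of all genes that fell and the 6.83% that rose, and the median change of all genes was 0.026. Lists in which a large share fell and few or none rose include those of cholesterol synthesis, ERK feedback, glycolysis, collagens and epiblast factors. Those in which a share above that of all genes rose and few fell include chaperones, mitotic genes and lysosomal genes. Genes of heme and iron, and other receptor tyrosine kinases with their ligands, were also among them. Of the 9 mitotic rises 1 held. In 85 of the 101 lists a count moved by over 1.5 times when 1 array was left out, so the number that held is given beside each count.

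**Figure D2:**
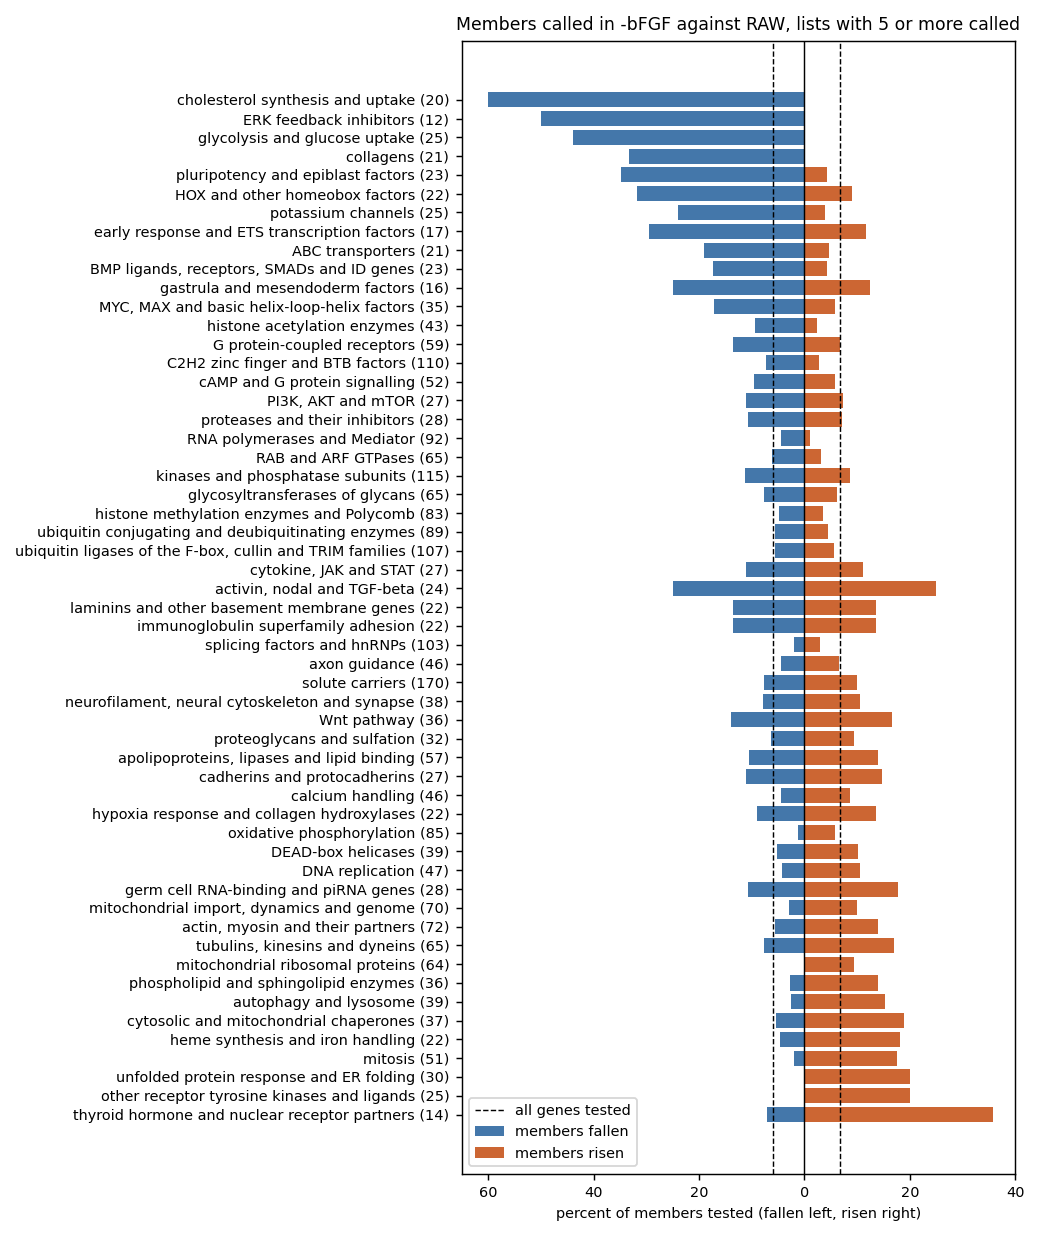
Share of the tested members that fell (left) or rose (right) without bFGF, in percent, for the 55 lists with 5 or more called members, with the number tested in brackets. Dashed lines mark the shares over all genes tested, 5.99% fallen and 6.83% risen. The top 4 lists have no risen member.

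Several brakes on ERK signalling fell and none rose. Of 12 genes measured, 6 fell and none rose, all 6 calls held, and the median change was -0.39. They include DUSP6, a phosphatase that acts on ERK, at 3786, 3799 and 3796 in RAW and 995, 1039 and 1002 in -bFGF (-1.91 ± 0.052), and the receptor-level inhibitor IL17RD at -2.28 ± 0.1. SPRY1 and SPRY2, Sprouty inhibitors, changed by -1.73 ± 0.098 and -1.55 ± 0.063. DUSP1, a nuclear phosphatase for several MAP kinases, had 564, 699.6 and 663 in RAW and 449, 376 and 421 in -bFGF and changed by -0.63 ± 0.11 (adjusted p = 0.00241). The list was drawn up with these falls in part known, so its count is no independent evidence of direction.

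Few components of the pathway itself were called. In the RAS and MAP kinase cascade 3 of 28 fell, all held, and none rose: RASA3, a GTPase-activating protein that shuts RAS off, by -0.67 ± 0.093, the p38 kinase MAPK14 by -0.54 ± 0.093 and the RAS relative MRAS by -0.53 ± 0.070. MAPK14 had 6349.6 ± 248 in RAW and 4367 ± 251 in -bFGF (SD), a high level in both groups. Among FGF ligands and receptors 1 of 8 fell and held, FGF13, an intracellular FGF homologue. In the PI3K, AKT and mTOR list 3 of 27 fell and 2 rose, of which 2 and 0 held, led by the kinase SGK1 at -1.41 ± 0.073 and by PIK3R1, a regulatory subunit of PI3 kinase, at 0.60 ± 0.15. The call of PIK3R1 was lost without -bFGF array 1, 2 or 3, up to an adjusted p of 0.0721, and rises numbered 1 without RAW array 2 or -bFGF array 3 and 0 without -bFGF array 1 or 2.

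Early response and ETS transcription factors split. Of 17, 5 fell, of which 3 held, and 2 rose, both held. ETV1 changed by -1.01 ± 0.083 and ETV5 by -0.51 ± 0.11, both ETS factors of the PEA3 group downstream of ERK, and BTG1, an antiproliferative protein, by -0.32 ± 0.047. MYC, at 64.6, 68.2 and 72.5 in RAW and 145, 123 and 161 in -bFGF, rose by 1.05 ± 0.2 from a level near the limit of the test, while MYCN changed by -0.16 ± 0.046. Falls came to 3 without RAW array 2 or 3 or -bFGF array 3, and the call of MYCN was lost with any array left out, up to an adjusted p of 0.163. MAFF, a small MAF factor, changed by -0.62 ± 0.15, lost without RAW array 2 or 3 or -bFGF array 3, up to an adjusted p of 0.0817.

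In the list of other receptor tyrosine kinases and their ligands 5 of 25 rose, of which 3 held, and none fell. Its median change was 0.019, with 14 changes positive and 11 negative. The ephrin receptors EPHA1, described above, and EPHA2 are not in this list. Both fell, and the call of EPHA2 did not hold. PDGFA, a platelet-derived growth factor chain, rose by 1.53 ± 0.089, with 744, 807 and 736 in RAW and 2253, 1967 and 2391 in -bFGF. NRG4, a ligand of ERBB4, had 375, 436 and 363 in RAW and 648, 543 and 654 in -bFGF (0.65 ± 0.11), and ERBB4 itself had 588, 649.8 and 674 in RAW and 807, 961 and 825 in -bFGF (0.44 ± 0.093). The ligand and its receptor were thus both higher on all 3 -bFGF arrays than on any RAW array. GFRA1, the receptor for GDNF, rose by 0.61 ± 0.11 and MERTK by 0.89 ± 0.25. Without -bFGF array 2 the count was 3, and calls were lost for ERBB4 without -bFGF array 2, with an adjusted p of 0.0518 and for MERTK without RAW array 2 or 3 or -bFGF array 1, 2 or 3, up to an adjusted p of 0.121.

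Receptors coupled to G proteins fell more often than they rose, with 8 of 59 fallen, 6 of them held, and 4 risen, of which 1 held. HTR7, a serotonin receptor that raises cyclic AMP, had 451, 314 and 446 in RAW and 221, 176 and 204 in -bFGF (-1.0 ± 0.15, adjusted p = 0.000645). EDNRB, the endothelin receptor B of neural crest cells, had 557, 459.6 and 514 in RAW and 279, 237 and 270.3 in -bFGF (-0.96 ± 0.1), and GPR1 had 1311, 1419 and 1258 in RAW and 684, 686 and 643 in -bFGF (-0.99 ± 0.080). No -bFGF array reached the lowest RAW array for any of the 3. The adhesion receptor ADGRA3 changed by -0.77 ± 0.11, and another serotonin receptor, HTR1D, rose by 0.64 ± 0.1. F2RL1, a protease-activated receptor, rose by 0.72 ± 0.19, a call lost without RAW array 1 or 2 or -bFGF array 1 or 3, up to an adjusted p of 0.112. Rises came to 2 without RAW array 1 and 1 without RAW array 2 or -bFGF array 3.

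Downstream of these receptors, 5 of 52 cyclic AMP and G protein genes fell, of which 2 held, and 3 rose, of which 2 held. PDE3A, which degrades cyclic AMP, had 160.0, 116 and 131 in RAW and 266, 294 and 306 in -bFGF and rose by 1.10 ± 0.17. AKAP12, a scaffold for protein kinase A, rose by 0.59 ± 0.091. GNG10, a gamma subunit, changed by -0.53 ± 0.052 from the high level of 14390.5 ± 105 in RAW and 9966 ± 558 in -bFGF, and the alpha subunit GNAI1 by -0.32 ± 0.057. A fall was called for 2 without RAW array 1 or 2 or -bFGF array 2 or 3. Of 46 calcium genes 4 rose, of which 2 held, among them CD38, which makes the calcium messenger cyclic ADP-ribose (0.68 ± 0.080), and the release channel ITPR2 (0.62 ± 0.088), and 2 fell, of which 1 held, led by the calcium pump ATP2B1 (-0.51 ± 0.051). A rise was called for 2 without RAW array 2 or -bFGF array 1 or 2, and falls numbered 4 without RAW array 3 and 1 without -bFGF array 1. Lipid phosphate phosphatases and lysophospholipid receptors fell in 4 of 14 cases, of which 2 held, PLPP1 by -1.32 ± 0.067 and the sphingosine 1-phosphate receptor S1PR3 by -0.54 ± 0.098. This count was 2 without RAW array 1 or 2 or -bFGF array 1 or 3.

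Wnt genes moved both ways, with 5 of 36 fallen, of which 3 held, and 6 risen, of which 1 held. Beside FZD8, the secreted Wnt antagonist SFRP1 had 774, 734 and 904 in RAW and 270.5, 338 and 306 in -bFGF (-1.40 ± 0.12, adjusted p = 4.51e-06) and its relative SFRP2 changed by -0.58 ± 0.053. The receptor and secreted antagonists thus fell together. NKD1, an intracellular Wnt inhibitor, had 351, 360.2 and 362 in RAW and 567, 573 and 634 in -bFGF and was the risen call that held (0.72 ± 0.1). RSPO2, which potentiates Wnt signals, rose by 0.82 ± 0.24 and WNT5B by 0.53 ± 0.14, and FZD7 changed by -0.63 ± 0.17. These calls were lost for RSPO2 without RAW array 1 or 2 or -bFGF array 1, 2 or 3, up to an adjusted p of 0.135, for WNT5B without RAW array 1 or 2 or -bFGF array 1, 2 or 3, up to an adjusted p of 0.0921 and for FZD7 without RAW array 1 or 2 or -bFGF array 1 or 3, up to an adjusted p of 0.146. Fallen members numbered 3 without RAW array 1 or 2 or -bFGF array 3, and rises numbered 1 or 2 with any array but RAW array 3 left out.

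In the activin, nodal and TGF-beta list 12 of 24 genes were called, 6 in each direction, and 3 of each held. Those that fell include TMEFF2, a membrane protein with follistatin domains, at 2731, 2760.0 and 2513 in RAW and 1023, 1084 and 1008 in -bFGF (-1.36 ± 0.084), and CFC1, a coreceptor for nodal, at 6269, 6311 and 6429 in RAW and 4082, 3835 and 3808 in -bFGF (-0.70 ± 0.055). SMAD2, a transducer of activin signals, changed by -0.58 ± 0.067. Among the genes that rose were SKIL, a repressor of SMAD target genes, by 0.63 ± 0.11, FST, which binds activin, by 0.58 ± 0.13, and the repressor TGIF2 by 0.34 ± 0.072. FST had 289.7, 281 and 261 in RAW and 428, 379 and 439 in -bFGF, with every -bFGF array above every RAW array. GDF5 and TMEFF1 changed by -0.82 ± 0.24 and -0.79 ± 0.23, and the calls were lost for GDF5 with any array left out, up to an adjusted p of 0.171 and for TMEFF1 without RAW array 1, 2 or 3 or -bFGF array 1 or 2, up to an adjusted p of 0.148. Falls came to 3 without RAW array 1 or -bFGF array 1 and rises to 3 without -bFGF array 2.

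Of 23 BMP genes 4 fell, of which 3 held, and 1 rose. The risen gene, BMP7, lost its call with any array left out. ID3 and ID1, inhibitors of helix-loop-helix factors, changed by -0.66 ± 0.12 and -0.37 ± 0.075, and MSX1, a homeobox factor, by -0.47 ± 0.097. The Notch list had 2 of 25 fallen, of which 1 held, led by the glycosyltransferase LFNG (-0.46 ± 0.086), and none risen, and its count was 1 without RAW array 2 or -bFGF array 2 or 3. In the cytokine list 3 of 27 fell, all held, and 3 rose, of which none held. IRF4, an interferon regulatory factor of lymphoid cells, had 173, 199 and 189 in RAW and 85.9, 82.8 and 72.4 in -bFGF (-1.22 ± 0.17). CXCR4, the receptor that guides germ cell migration, and its ligand CXCL12 changed by -0.52 ± 0.076 and -0.42 ± 0.070. The risen count of that list was 1 without RAW array 1 and 0 without RAW array 2.

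Several transcription factors of pluripotent and anterior neural cells fell. Of 23 genes in the pluripotency and epiblast list 8 fell, of which 7 held, and 1 rose, with a median of -0.12. After FOXD3 and HESX1 came OTX2, a homeobox factor of the epiblast and forebrain (-1.03 ± 0.078), the RNA-binding protein LIN28A (-0.98 ± 0.13) and the zinc finger factor ZIC2, at 4689, 5163 and 4897 in RAW and 3039.9, 3112 and 3051 in -bFGF (-0.68 ± 0.055). ZIC2 lay far above the background in both groups and its groups did not overlap. KLF5 rose by 0.32 ± 0.077, a call lost without RAW array 1 or -bFGF array 1, 2 or 3, up to an adjusted p of 0.0778. In the list of gastrula factors 4 of 16 fell and 2 rose, of which 2 and 2 held. SOX7, an endodermal factor, had 413, 372 and 376 in RAW and 854, 722 and 669.8 in -bFGF (0.95 ± 0.12), and EOMES, a T-box factor, rose by 0.82 ± 0.12, while the T-box factor TBXT changed by -0.92 ± 0.13 and SNAI1, a repressor of epithelial genes, by -0.55 ± 0.098. The fallen count there was 2 without RAW array 1 or 2 or -bFGF array 2 or 3.

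Homeobox factors fell in 7 of 22 cases, 4 of them held, and rose in 2, of which 1 held. Beside those already named, NKX6-2 had 418, 456 and 439 in RAW and 181, 129 and 175 in -bFGF, so that its groups were more than 2-fold apart. MEIS2, a partner of HOX proteins, changed by -0.65 ± 0.16 and the related PKNOX1 rose by 0.49 ± 0.13, calls lost for MEIS2 without RAW array 1 or -bFGF array 1 or 3, up to an adjusted p of 0.0903 and for PKNOX1 without RAW array 1, 2 or 3 or -bFGF array 1 or 3, up to an adjusted p of 0.135. A fall was called for 4 without RAW array 1 or -bFGF array 3, and rises numbered 1 with any array but -bFGF array 2 left out. Among 35 MYC and basic helix-loop-helix factors 6 fell, of which 3 held, and 2 rose, both held. BHLHE22, a neural repressor, had 739, 706 and 602 in RAW and 301, 239.8 and 234 in -bFGF (-1.41 ± 0.11, adjusted p = 3.29e-06), beside the rises of ATOH8 and MYC. OLIG2, a neural tube factor, changed by -0.75 ± 0.21, lost without RAW array 2 or 3 or -bFGF array 1 or 3, up to an adjusted p of 0.129, and falls in this list numbered 3 without RAW array 2 or -bFGF array 3.

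KLF9, a factor induced by glucocorticoid and thyroid hormone, had 385, 407 and 455 in RAW and 199, 207 and 273 in -bFGF (-0.89 ± 0.14) and KLF15 had 169.8, 180.4 and 176 in RAW and 85.3, 117 and 97 in -bFGF (-0.82 ± 0.17). With SP4 (-0.32 ± 0.095) they were the fallen 3 of 13 in the GATA, KLF and SP list, of which KLF9 and KLF15 held. The 1 risen member, KLF5, is described above and did not hold. The call of SP4 was lost with any array left out, up to an adjusted p of 0.165. Among 18 nuclear receptors NR4A2 and PPARD, a receptor for fatty acids (0.62 ± 0.13), rose and NR6A1, the germ cell nuclear factor, fell (-0.47 ± 0.070), and all 3 calls held. Among C2H2 zinc finger and BTB factors 8 of 110 fell, of which 3 held, and 3 rose, of which 1 held. ZFP36L2, which speeds the decay of messenger RNAs with AU-rich elements, changed by -0.79 ± 0.076. Fallen members numbered 3 without RAW array 1 or 2 and 5 without -bFGF array 1 or 3, and rises numbered 1 without RAW array 2 or 3 or -bFGF array 2.

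Of 14 genes of thyroid hormone handling and nuclear receptor partners 5 rose, of which 4 held, and 1 fell and held. The fallen gene was SLC16A10, an exporter of aromatic amino acids and thyroid hormone, at 3023, 3003 and 3033 in RAW and 1231, 1483 and 1466 in -bFGF (-1.12 ± 0.075, adjusted p = 5.33e-07), and all 5 of its probe sets fell. The coactivator NCOA7 rose by 0.63 ± 0.12 and TRIP4, a thyroid receptor interactor, by 0.41 ± 0.087. TRIP11 rose by 0.38 ± 0.11, a call lost without RAW array 1 or 2 or -bFGF array 2 or 3, up to an adjusted p of 0.148. Falls came to 2 without -bFGF array 2.

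Most genes of the cholesterol list fell. In the cholesterol list 12 of 20 genes fell, 9 of them held, none rose and the median was -0.30. SREBF2, the transcription factor that drives this pathway, had 1269, 1217 and 1328 in RAW and 829.7, 792 and 1014 in -bFGF (-0.54 ± 0.090, adjusted p = 0.00175). HMGCS1, which makes hydroxymethylglutaryl-CoA, had 1952, 2022 and 1540.4 in RAW and 1338, 1315 and 1271 in -bFGF (-0.48 ± 0.090), and NSDHL, an enzyme of the late steps, had 1460.3, 1494 and 1212 in RAW and 793, 980.0 and 721 in -bFGF (-0.75 ± 0.11). The groups of all 3 genes did not overlap. INSIG1, which holds SREBP in the endoplasmic reticulum, changed by -0.82 ± 0.060, MSMO1 by -0.79 ± 0.056, FDPS by -0.73 ± 0.1 and FDFT1 by -0.55 ± 0.059, so that enzymes from the first steps to the last were among the fallen.

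Of 57 apolipoprotein, lipase and lipid-binding genes 6 fell, of which 4 held, and 8 rose, of which 3 held. LIPG, an endothelial-type lipase, had 300.2, 317 and 305 in RAW and 139, 123 and 144 in -bFGF (-1.19 ± 0.14), and FABP6, an intracellular bile acid carrier, had 397, 401 and 444 in RAW and 188, 189.6 and 175 in -bFGF (-1.17 ± 0.11, adjusted p = 8.9e-06). Both were more than 2-fold lower on each -bFGF array than on each RAW array. PLIN2, which coats lipid droplets, had 1348, 1359 and 1306 in RAW and 2304, 2201 and 2271 in -bFGF (0.76 ± 0.066), and VLDLR, a lipoprotein receptor, had 322, 340.3 and 369 in RAW and 536, 584 and 564 in -bFGF (0.71 ± 0.096). APOA1, the main protein of high-density lipoprotein, changed by -0.98 ± 0.24 and STARD9 rose by 0.86 ± 0.24, calls lost for APOA1 without RAW array 3 or -bFGF array 1, up to an adjusted p of 0.0829 and for STARD9 without RAW array 1 or 3 or -bFGF array 2 or 3, up to an adjusted p of 0.134. Risen members numbered 5 without RAW array 1 or 3 or -bFGF array 2, and 3 without -bFGF array 3.

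In fatty acid oxidation 3 of 18 rose, of which 2 held, and 1 fell, which held. CPT1A and CPT2, the carnitine palmitoyltransferases that carry fatty acids into mitochondria, rose by 0.61 ± 0.16 and 0.36 ± 0.070, and the dehydrogenase ACADL by 0.26 ± 0.050, while HADHB, a subunit of the trifunctional protein, changed by -0.34 ± 0.059. CPT2 had 769.9, 787 and 747 in RAW and 994, 961 and 1003 in -bFGF, a narrow gap with no overlap. The call of CPT1A was lost without RAW array 1 or 3 or -bFGF array 1 or 2, up to an adjusted p of 0.0971. Among genes of fatty acid synthesis 3 of 17 fell, of which 2 held, led by the acyl-CoA synthetases ACSL6 (-0.60 ± 0.099) and ACSL4 (-0.45 ± 0.068), and malic enzyme ME1 rose (0.48 ± 0.1), which held. Rises came to 2 without RAW array 3. Of 36 phospholipid and sphingolipid enzymes 5 rose, of which 2 held, and 1 fell, which held. SGMS2, a sphingomyelin synthase, rose by 0.49 ± 0.095 and GPAM, which starts triglyceride synthesis, by 0.32 ± 0.064, and the ceramide synthase CERS5 changed by -0.33 ± 0.058. This risen count was 2 without RAW array 2, and 3 without RAW array 3 or -bFGF array 1 or 2.

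**Figure D3:**
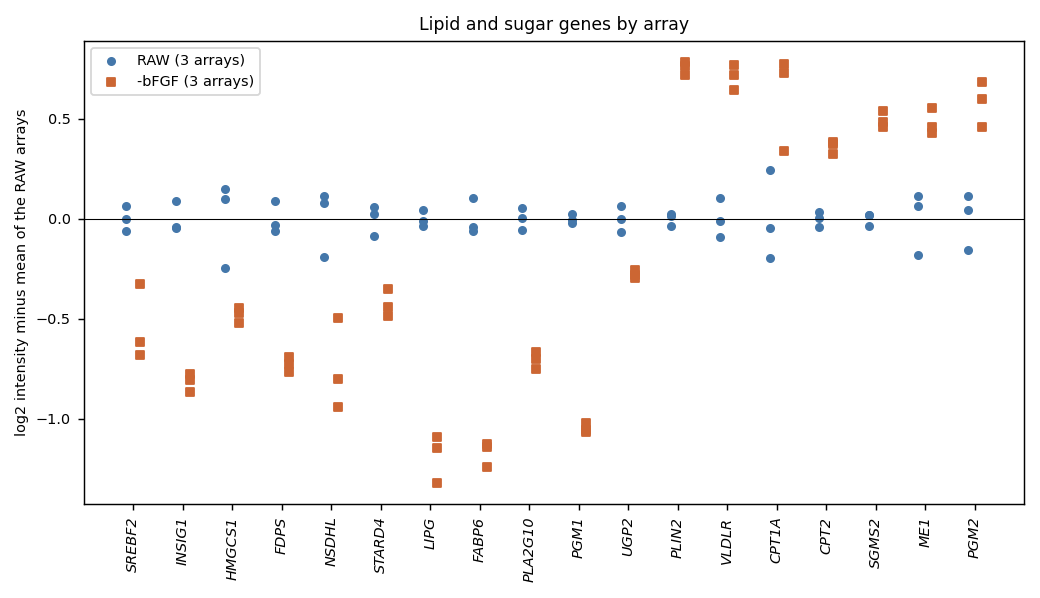
Log2 intensity of 18 lipid and sugar genes on each array, with the mean of the 3 RAW arrays set at 0 for each gene. Circles are RAW arrays and squares -bFGF arrays. Squares lie below all circles for the first 11 genes and above them for the other 7, PLIN2 to PGM2.

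Genes of glucose uptake and glycolysis fell in 11 of 25 cases, with none risen and a median of -0.23, but 7 of the 11 changes lay between -0.30 and -0.20 and 4 calls held. SLC2A1, a glucose transporter, had 2938, 2956 and 3069.6 in RAW and 1613, 1619 and 1595 in -bFGF (-0.89 ± 0.056). The transporter listed as SLC2A14, which the gene table also names SLC2A3, had 9927, 9803 and 11078 in RAW and 6788, 6323 and 6018 in -bFGF (-0.69 ± 0.067). PFKP, which makes the committed step, changed by -0.49 ± 0.053 and LDHA, which makes lactate, by -0.38 ± 0.061. The lactate carrier SLC16A3 (-0.30 ± 0.067) and enolase ENO1 (-0.27 ± 0.074) also fell, calls lost for SLC16A3 without RAW array 1 or 2 or -bFGF array 3, up to an adjusted p of 0.0611 and for ENO1 without RAW array 2 or 3 or -bFGF array 1, 2 or 3, up to an adjusted p of 0.119. The count was 5 without RAW array 2 or -bFGF array 2, and 7 without -bFGF array 3.

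Genes at the entry to glycogen changed as well. PGM1, which interconverts glucose 1-phosphate and glucose 6-phosphate, had 2308, 2288 and 2359 in RAW and 1143, 1115 and 1108 in -bFGF (-1.05 ± 0.055, adjusted p = 5.13e-08), and UGP2, which makes UDP-glucose, had 4592, 4801 and 5013 in RAW and 4013, 3945 and 3906 in -bFGF (-0.28 ± 0.053). PPP1R3B, which targets a phosphatase to glycogen, had 2024, 2063 and 1949 in RAW and 1033, 1084 and 1172 in -bFGF (-0.88 ± 0.065, adjusted p = 1.37e-06). PGM2, which also acts on pentose phosphates, and RPIA of the pentose phosphate pathway rose by 0.58 ± 0.096 and 0.29 ± 0.054. All 4 calls of the 10 pentose phosphate and glycogen genes held. The citrate cycle list had 1 of 19 in each direction, of which the risen one held, and the nucleotide list 1 of 23 fallen, which held, UMPS, the enzyme that completes uridine monophosphate, which changed by -0.73 ± 0.055.

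Solute carriers, the largest family measured, gave 13 fallen and 17 risen of 170, and 8 and 6 of these held. SLC35F3 had 1321, 1278 and 1302 in RAW and 645, 534 and 614 in -bFGF (-1.13 ± 0.094). SLC22A5, the carnitine transporter, had 2034, 1828 and 1783 in RAW and 3213, 2902 and 3115 in -bFGF (0.71 ± 0.070, adjusted p = 1.93e-05), and the phosphate transporter SLC34A2 rose by 0.81 ± 0.087. SLC16A14 rose by 0.90 ± 0.22 and SLC18A3, which loads acetylcholine into vesicles, changed by -0.79 ± 0.21, calls lost for SLC16A14 without RAW array 1 or 3 or -bFGF array 1 or 3, up to an adjusted p of 0.0755 and for SLC18A3 without RAW array 1 or 3 or -bFGF array 2 or 3, up to an adjusted p of 0.121. A fall was called for 8 without RAW array 1 or -bFGF array 3, and rises numbered 9 to 11 with any array but RAW array 3 left out.

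Potassium channel genes fell in 6 of 25 cases, 4 of them held, and rose in 1, which did not hold. KCNK5, a leak channel, had 611, 800.2 and 663 in RAW and 382, 339 and 451 in -bFGF (-0.82 ± 0.14), and KCNG1, a modifier of voltage-gated channels, changed by -0.56 ± 0.075. KCNU1, a sperm channel in mammals, changed by -1.02 ± 0.23 from intensities close to the limit of the test, 113, 109 and 104 in RAW and 59.2, 57.6 and 44.9 in -bFGF. KCNAB1, KCNMB4 and KCNIP1, all accessory subunits, changed by 0.73 ± 0.18, -0.69 ± 0.16 and -0.53 ± 0.12. These calls were lost for KCNAB1 without RAW array 1 or -bFGF array 3, up to an adjusted p of 0.0958, for KCNMB4 without RAW array 1 or -bFGF array 2, up to an adjusted p of 0.0601 and for KCNIP1 without RAW array 2 or -bFGF array 3, up to an adjusted p of 0.0567. KCNAB1 was the only risen member, so the risen count was 0 without RAW array 1 or -bFGF array 3. Of the 21 ABC transporters 4 fell, all held, and 1 rose, which held. ABCC8, the sulfonylurea receptor of ATP-sensitive potassium channels, had 445, 340.5 and 395 in RAW and 259.9, 241 and 220.5 in -bFGF (-0.70 ± 0.12) and ABCA12, a lipid carrier, had 354, 363 and 427 in RAW and 262, 212 and 242 in -bFGF (-0.68 ± 0.12), with a clear gap between groups for both.

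**Figure D4:**
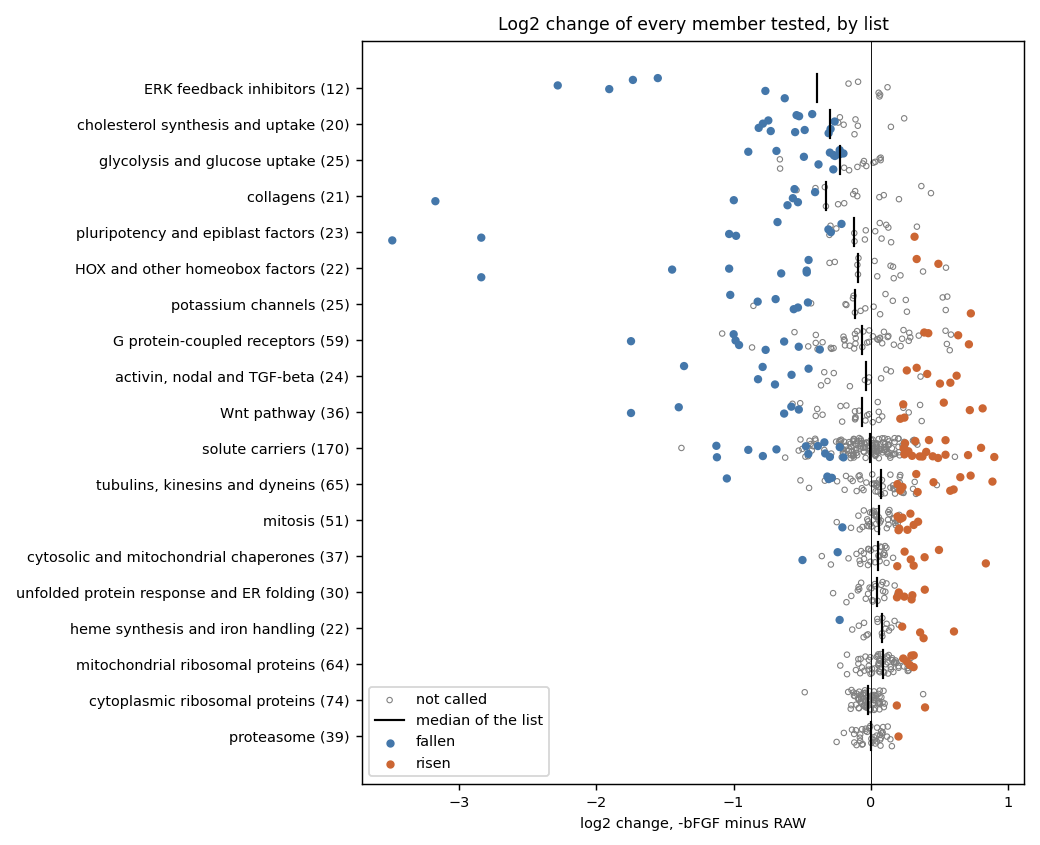
Log2 change (-bFGF minus RAW) of every tested member of 19 lists, with the number tested in brackets. Filled points were called, open points were not, and the vertical bars are list medians. The medians of the top 4 lists lie between -0.39 and -0.23 and those of the bottom 2 at -0.02 and 0.01.

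Part of the collagen genes fell. Of 21 collagens 7 fell, of which 3 held, none rose and the median was -0.33. COL1A2, a chain of type I collagen, changed by -3.18 ± 0.095. COL2A1, the cartilage collagen, had 865, 904 and 978 in RAW and 619, 571 and 664 in -bFGF (-0.57 ± 0.092) and COL5A2, which joins type I fibrils, had 615, 474 and 489.5 in RAW and 393, 335 and 342 in -bFGF (-0.56 ± 0.12). COL1A1, the partner chain of COL1A2 in type I collagen, had 267 ± 37 in RAW and 185 ± 25.6 in -bFGF (SD) and changed by -0.53 ± 0.16. COL23A1 and COL13A1, membrane collagens, changed by -1.0 ± 0.22 and -0.61 ± 0.17. Calls were lost for COL1A1 with any array left out, up to an adjusted p of 0.177, for COL23A1 without RAW array 2, with an adjusted p of 0.0542 and for COL13A1 without RAW array 2 or 3 or -bFGF array 1 or 3, up to an adjusted p of 0.13, and the count was 3 without RAW array 2. Of the fibroblast and mesenchyme markers 4 of the 7 that were tested fell (2 with any array but RAW array 3 left out), and since COL1A1 and COL1A2 are 2 of these 4, the count is not separate from that of the collagens. The other 2 were FN1, a fibronectin, and the homeobox factor PRRX1, at -0.40 ± 0.1 and -0.56 ± 0.11. The summed level of all 11 was 8160 to 9214 in RAW and 6107 to 6395 in -bFGF, and COL1A2 alone went from a mean of 2385 to one of 263. The call of FN1 was lost without RAW array 1 or 2 or -bFGF array 1, 2 or 3, up to an adjusted p of 0.114. Of the 11 markers POSTN, DCN, LUM and TWIST1 lay below background on all 6 arrays, and COL3A1 had a mean of 4235 in RAW and 4418 in -bFGF. THY1 and PDGFRB changed by -0.35 ± 0.19 and -0.29 ± 0.18 and missed the test. In a wider fibroblast list 4 of 12 genes fell, of which 2 held, and none rose, with a median of -0.38. The part of such cells in the fall of the collagens was not tested.

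Basement membrane genes divided, with 3 of 22 fallen and 3 risen, of which 1 and 1 held. LAMA1, the embryonic laminin alpha chain, rose by 0.56 ± 0.059 while LAMA5 changed by -0.56 ± 0.099. Fallen members numbered 1 without RAW array 2 or 3 or -bFGF array 1 or 3, and rises numbered 1 with any array left out. Among cadherins CDH11, a mesenchymal cadherin, had 700.5, 632 and 588 in RAW and 290.0, 304 and 319 in -bFGF (-1.07 ± 0.1, adjusted p = 1.52e-05), whereas CDH20 had 1445, 1321 and 1264 in RAW and 1935, 1927 and 1827 in -bFGF (0.50 ± 0.067) and CDH13 and CDH12 rose by 0.53 ± 0.074 and 0.69 ± 0.14. In all 3 of 27 fell, of which 1 held, and 4 rose, of which 3 held, and falls numbered 1 without RAW array 1 or 2 or -bFGF array 1 or 3. The integrin subunit ITGB5 changed by -1.01 ± 0.067, as 1 of 2 fallen among 14 integrins, and it alone held.

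Genes of neural adhesion and cytoskeleton changed in both directions. In the neural list 3 of 38 fell and 4 rose, and all held. NEFM, a neurofilament subunit, and NLGN1, a synaptic adhesion protein, rose by 1.67 ± 0.13 and 1.25 ± 0.070, and MAP1A, a microtubule-binding protein of neurons, had 189, 214 and 216 in RAW and 304, 441 and 413 in -bFGF (0.89 ± 0.18). STMN2, which destabilises microtubules in growing neurites, had 1129, 1019.6 and 1124 in RAW and 515, 556 and 509.9 in -bFGF (-1.05 ± 0.084, adjusted p = 3.07e-06). In the immunoglobulin superfamily 3 of 22 fell and 3 rose, of which 2 and 3 held. CNTN4, a contactin, and EMB, a chaperone of lactate carriers, rose by 0.67 ± 0.076 and 0.50 ± 0.058, and CADM1 and NEGR1 changed by -0.43 ± 0.053 and -0.42 ± 0.087. EMB had 4643, 4336 and 4591 in RAW and 6861, 6224 and 6160.2 in -bFGF, so that its groups were well apart at a high level. Axon guidance genes stayed near the share of all genes, with 2 of 46 fallen and 3 risen, of which 1 and 1 held, and the ephrin receptor EPHA7 rose by 0.87 ± 0.14. Falls came to 1 without -bFGF array 1 or 2, and rises numbered 1 without -bFGF array 3.

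Tubulins, kinesins and dyneins rose in 11 of 65 cases, of which 4 held, and fell in 5, of which 3 held, with a median of 0.08. TUBB6, a beta tubulin, had 2101, 2257 and 1899 in RAW and 3621, 3467 and 3269 in -bFGF (0.73 ± 0.068, adjusted p = 1.26e-05), whereas TUBB2B changed by -0.32 ± 0.064, and TUBB1 is described above. A rise was called for 6 without RAW array 2 or -bFGF array 1 or 2 and 7 without -bFGF array 3, and falls numbered 3 without RAW array 2 or 3 or -bFGF array 2. Of 51 mitotic genes 9 rose and 1 fell, but no called change was larger than 0.35 and 1 call held. That gene was CENPP, a centromere protein, at 1188, 1183 and 1337 in RAW and 1632, 1558 and 1519 in -bFGF (0.35 ± 0.068), and 38 of the 51 changes were positive. Risen members numbered 3 without RAW array 1, 1 without RAW array 2, 1 without -bFGF array 1 and 2 without -bFGF array 2, and the call of the fallen gene, CCNA2, was lost without RAW array 2 or 3 or -bFGF array 2 or 3, up to an adjusted p of 0.0865.

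D-type cyclins, which carry growth factor signals to the cell cycle, were the 2 of 17 G1 genes that fell, and both held. CCND1 had 3948, 4041 and 4445 in RAW and 2836, 2720.5 and 2677 in -bFGF (-0.59 ± 0.064, adjusted p = 4.55e-05) and CCND2 had 11953, 11970.2 and 11996 in RAW and 8779.5, 9133 and 8842 in -bFGF (-0.43 ± 0.047). Their groups did not overlap, and 1 gene of the list, E2F7, rose, a call lost without RAW array 2 or 3 or -bFGF array 1 or 3. Of 47 replication genes 5 rose, of which 2 held, and 2 fell, of which 1 held. The helicase subunit MCM8 rose by 0.41 ± 0.083 while MCM2, of the main replicative helicase, changed by -0.36 ± 0.065. Rises came to 2 without RAW array 1 or -bFGF array 1 or 2 and 3 without RAW array 2, and falls numbered 1 with any array but RAW array 1 left out. BARD1, the partner of BRCA1, changed by -0.60 ± 0.058 and the end-joining protein XRCC5 rose by 0.40 ± 0.065, in a repair list with 2 of 46 fallen (1 without RAW array 1 or 2 or -bFGF array 2 or 3), of which 1 held, and 1 risen, which held (2 without -bFGF array 1). Of 36 genes of the apoptosis machinery 2 fell and 1 rose, of which 1 and 0 held, and the held call was SIVA1 at -0.34 ± 0.064. A fall was called for 1 without RAW array 1, and rises numbered 0 without RAW array 2 or 3 or -bFGF array 1 or 3.

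Of 72 actin and myosin genes 10 rose, of which 3 held, and 4 fell, of which none held. MYL3 and ACTA1, muscle forms of myosin light chain and actin, rose by 0.59 ± 0.093 and 0.49 ± 0.077, with 401, 431 and 446 in RAW and 680.0, 661 and 589.5 in -bFGF for MYL3. EZR, which ties actin to the membrane, rose by 0.42 ± 0.074. A rise was called for 3 to 6 with any array left out, lowest without RAW array 2, and falls numbered 1 without RAW array 2 or -bFGF array 3 and 2 without -bFGF array 1 or 2.

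Of 115 phosphatase subunits and kinases outside the pathway lists 13 fell (11.3%) and 10 rose (8.7%), of which 6 and 3 held. PPP1R14C, an inhibitor of protein phosphatase 1, had 9091, 9004 and 8596 in RAW and 5049, 4795 and 4349 in -bFGF (-0.91 ± 0.060, adjusted p = 4.62e-07), a gap wider than either group's range. PTPN3, a tyrosine phosphatase, had 891, 923 and 875 in RAW and 1373, 1423 and 1395 in -bFGF (0.64 ± 0.065), and all 3 of its probe sets rose. The kinase STK17B rose by 0.42 ± 0.077 and the pseudokinase TRIB2 changed by -0.42 ± 0.057. Falls came to 7 without RAW array 2, and rises numbered 5 or 6 with any array left out.

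Chaperones rose in 7 of 37 cases, 5 of them held, and fell in 2, of which 1 held. HSPB9, listed in the gene table also as HSP25, had 2845, 2840.0 and 2734 in RAW and 4124, 3883 and 3889.6 in -bFGF (0.50 ± 0.052, adjusted p = 3.44e-05). DNAJB4, a cochaperone of HSP70, had 3404, 2819 and 3166 in RAW and 4119, 4117 and 4063 in -bFGF (0.39 ± 0.072), and the cochaperones BAG2 and CHORDC1 rose by 0.31 ± 0.063 and 0.29 ± 0.060. CCT3, a subunit of the chaperonin that folds actin and tubulin, had 671, 806 and 795 in RAW and 1118, 1581 and 1397 in -bFGF (0.84 ± 0.18), and CDC37, which loads kinases on HSP90, changed by -0.50 ± 0.078. A fall was called for 1 without -bFGF array 2. In the endoplasmic reticulum list 6 of 30 rose and none fell, but none of these calls held. PDIA3, a protein disulfide isomerase, rose by 0.40 ± 0.12 and the cochaperone DNAJB9 by 0.30 ± 0.083, calls lost for PDIA3 without RAW array 1 or 2 or -bFGF array 2 or 3, up to an adjusted p of 0.153 and for DNAJB9 without RAW array 1 or 2 or -bFGF array 1, 2 or 3, up to an adjusted p of 0.132. The count was 0 without RAW array 2 or -bFGF array 2 and 2 without any other array.

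Lysosomal genes rose in 6 of 39 cases, of which 2 held, and fell in 1, which held. CTSZ, a cysteine protease, had 1413, 1213 and 1532 in RAW and 2215, 2150.3 and 2008 in -bFGF (0.62 ± 0.081) and GUSB, a glucuronidase, rose by 0.34 ± 0.072, while CTSB, another cysteine protease, had 1479, 1537 and 1981 in RAW and 1046, 947 and 969 in -bFGF (-0.74 ± 0.1). CTSD, an aspartic protease, rose by 0.36 ± 0.086 and the membrane protein LAMP2 by 0.41 ± 0.092, calls lost for CTSD without RAW array 1 or 2 or -bFGF array 1 or 2, up to an adjusted p of 0.0805 and for LAMP2 without RAW array 1 or -bFGF array 3, up to an adjusted p of 0.0565. Risen members numbered 2 without RAW array 1 and 3 without RAW array 2 or any -bFGF array. In the heme and iron list 4 of 22 rose, of which 2 held, and 1 fell. FECH, which inserts iron into protoporphyrin, had 928, 959 and 1103 in RAW and 1464, 1543 and 1537 in -bFGF (0.61 ± 0.074), and ABCB10, a transporter of the inner mitochondrial membrane, had 4074, 3705 and 3963 in RAW and 5694, 4805 and 4883 in -bFGF (0.39 ± 0.081). CPOX, another enzyme of heme synthesis, rose by 0.36 ± 0.080, lost without -bFGF array 3, with an adjusted p of 0.0556, and rises numbered 2 without that array, while the fallen count was 0 with any array left out. The red cell markers of the short list were low in both groups. For the 3 genes of the wider list that were tested, HBP1 included, all differences were negative and none was called. TAL1, of the short list, had a mean of 72.4 in RAW and 49.5 in -bFGF. The part of red cells in these rises was not tested.

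In the mitochondrial lists the share that rose was 5.88% for oxidative phosphorylation, 9.38% for ribosomal proteins and 10.0% for import, dynamics and genome, against 6.83% of all genes. Of 64 mitochondrial ribosomal proteins 6 rose, of which 3 held, and none fell, and 48 of the 64 changes were positive, with a median of 0.09. MRPS36 had 4773, 4664 and 5063 in RAW and 6414, 5900.2 and 5722 in -bFGF (0.31 ± 0.057), and MRPL39 and MRPL46 rose by 0.31 ± 0.061 and 0.29 ± 0.059. The count was 3 without RAW array 1 or 2 or -bFGF array 2. In oxidative phosphorylation 5 of 85 rose, of which 1 held, COX18, an assembly factor of cytochrome oxidase (0.33 ± 0.067). In the same list 1 fell, a call made again only without -bFGF array 2. Rises came to 3 without RAW array 1 or -bFGF array 2, 2 without RAW array 2 and 1 without -bFGF array 1. Of 70 genes of mitochondrial import, dynamics and genome 7 rose, of which 1 held, and 2 fell, both held. TIMMDC1, an assembly factor of complex I, had 2037, 2009 and 2022 in RAW and 2571, 2577 and 3718 in -bFGF (0.52 ± 0.11), and the carriers SLC25A16 and SLC25A22 changed by -0.45 ± 0.087 and -0.33 ± 0.060. The risen count there was 1 without -bFGF array 1, 2 without RAW array 2 or -bFGF array 3, 3 without RAW array 1 and 4 without -bFGF array 2, and falls numbered 5 without -bFGF array 1.

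EPAS1, a hypoxia-inducible factor, had 497, 413 and 366 in RAW and 802, 702 and 814 in -bFGF (0.87 ± 0.12), and ADM, a vasodilator peptide among its known targets, rose by 0.50 ± 0.11, lost without RAW array 2 or -bFGF array 1, up to an adjusted p of 0.0542. In the hypoxia list 3 of 22 rose, of which 1 held, and 2 fell, of which 1 held, including the collagen hydroxylase P4HA1 (-0.43 ± 0.058). Fallen members numbered 1 without RAW array 1.

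Germ line genes changed in modest steps. Of 28 germ cell RNA-binding and piRNA genes 5 rose and 3 fell, of which 2 and 2 held. MSI1, an RNA-binding translational repressor, had 1712, 1797 and 1768 in RAW and 1089, 1069 and 1010.4 in -bFGF (-0.74 ± 0.074), and PUM2, another repressor, changed by -0.40 ± 0.076. CPEB1, which controls polyadenylation of stored messages in oocytes, had 1935, 1956 and 1938 in RAW and 2533, 2405 and 2741 in -bFGF (0.40 ± 0.060), and RNF17, a Tudor domain protein of germ cells, rose by 0.31 ± 0.067. ASZ1, a piRNA pathway protein, rose by 0.37 ± 0.079, lost without -bFGF array 2, with an adjusted p of 0.0533. A rise was called for 3 without RAW array 2 and 2 without -bFGF array 2. Of 13 meiosis genes 2 rose, and MSH4, a protein of crossing over, held, with 238, 221 and 209 in RAW and 367, 352 and 337 in -bFGF (0.66 ± 0.11).

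Few genes of the core machinery of gene expression and protein turnover were called. Of 74 cytoplasmic ribosomal proteins 2 rose, of which 1 held, and none fell. All arrays of one group lay above the other for 5 of the 74, against 35.4% of all genes. Of 39 proteasome subunits 1 rose, of 65 translation factors 2 fell and 1 rose, and of 103 splicing factors 2 fell and 3 rose, all below the shares over all genes, and of these calls 1 held, a risen splicing factor. Among chromatin genes the counts were 4 fallen and 3 risen of 83 histone methylation and Polycomb genes, of which 2 and 0 held, and 4 fallen and 1 risen of 43 histone acetylation genes, of which 2 and 1 held. ING5 and ING1, subunits of histone acetyltransferase and deacetylase complexes, had changes of -0.64 ± 0.055 and -0.46 ± 0.091, and JARID2, a partner of Polycomb complex PRC2, of -0.43 ± 0.078. SMARCA2, an ATPase of the SWI/SNF complex, had 946, 918 and 805 in RAW and 1427, 1614 and 1651 in -bFGF (0.81 ± 0.090), in a list of 35 remodelers with 2 risen, of which 1 held, and none fallen. Of 89 ubiquitin conjugating and deubiquitinating enzymes 5 fell and 4 rose, of which 3 and 2 held. USP44, a deubiquitinase of the spindle checkpoint, had 5304, 5723 and 5457 in RAW and 3817, 3687 and 3846 in -bFGF (-0.54 ± 0.060), and all 4 of its probe sets fell. Leaving out 1 array changed the counts in this paragraph by up to 3 genes.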

How the data were processed

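Total RNA of cultured chicken primordial germ cells was hybridised to 9 Affymetrix chicken arrays, 3 each for RAW, -bFGF and +bFGF. The authors deposited 1 linear intensity per probe set and array, which the submitters' processing notes credit to MAS5, and the version is not given in the sources used here. MAS5 scales each array as a whole and subtracts local background, so low values are noisy and no counts or depth stand behind them. The number of arrays limits the precision.

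Intensities were log2 transformed with no offset. The 96 array controls were left out, and so were probe sets under the median level over all 9 arrays (72.4). One mean per group was fitted with limma 3.58.1 in R 4.3.3 over all 9 arrays, so that the +bFGF arrays add to the shared estimate of spread, and the contrast -bFGF minus RAW was tested with eBayes and an intensity trend. P-values were adjusted over all 19220 probe sets by the Benjamini-Hochberg method. The study instead used dChip, which asked that means differ by over 50 and that the 90% interval of the fold lie above 1.2, and these criteria were run as an alternative. The fit was tested on simulated data. Gene names came from the platform annotation: 27178 probe sets had 1 symbol, 177 had several and 11180 had none, and unnamed probe sets were tested but not described. The 27178 reported on 13009 genes, of which 9125 passed the filter. Deviations of same-numbered RAW and -bFGF arrays from their group means had correlations of 0.022, 0.011 and -0.059. Those of unlike numbers ran from -0.117 to 0.115. With 3 arrays per group such values cannot decide whether the replicate numbers pair the arrays, and no pairing was used in the main fit. All 9 columns of values were assigned to samples, and no array was left out of the fit. NANOG, POU5F3 and PRDM14 were not analysed here, and 1 gene family was left out of the lists. Not all of the 101 lists are described in the text.

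The comparison, its gene lists and the families were chosen with earlier results of these data known. Genes named are the 12 largest falls and rises among called genes without overlap that the gene tables of the study do not hold, and in each list the called members with the largest changes, 6 at most. CCNA2, HMGCS1, HTR1D, MYCN, SLC22A5, SMAD2, TGIF2, TUBB2B, WNT5B, BMP7 and E2F7 were named outside this rule or for a count, after their values were seen. Alternatives changed the filter, the scaling, the offset, the trend, the arrays in the fit, the block, the threshold and the way probe sets were joined.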

Additional observations from a re-analysis of the deposited data

How the results depend on the processing

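None of the 250 genes named changed direction under an alternative that tested it, and the filter at the 75th percentile tested 164 of them. Of the 106 with several probe sets tested, 55 had every probe set called in the direction given and 0 had one called in the other. With the main setting 1025 probe sets fell and 1038 rose. Tested against a 1.2-fold change, 216 fell and 125 rose, and 117 of the 250 genes passed. Most calls were thus not shown to exceed a 1.2-fold change. Whether small size or noise was the reason was not tested. At an adjusted p under 0.1, 1515 fell and 1632 rose. By the criteria of the study's methods, run here on MAS5 values of all 38439 probe sets without controls, 713 fell and 601 rose. Of the 250 genes 208 passed. The study worked with dChip and reported fewer genes in both directions, so these counts do not reproduce its own. Leaving out 1 of the 9 arrays gave 652 to 1144 fallen and 561 to 1185 risen, and lost 18 to 32 of the genes when it was a RAW or -bFGF array. With the replicate number as a block 846 fell and 796 rose and 14 genes were lost, but the labels do not say whether that number pairs the arrays. Without the intensity trend 712 fell and 712 rose and 27 genes were lost, with no filter 788 and 720 and 22 genes. Scaling mattered less: centring on the 75th percentile gave 1139 fallen and 840 risen and lost 3 genes, and quantile normalization lost 2. The cause of these differences was not tested. Of 158 list counts 143 stayed within 1.5 times under quantile normalization, 88 without the trend and 21 in the test against 1.2-fold. Signals near the non-chicken probe sets, such as those of FOXD3 or SST1 without bFGF, limit the size that a fall can show.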

Other observations

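Outside the 101 lists lay 38 of the 81 genes that changed over 2-fold. The genes outside the lists given here were chosen after their values were seen. SHISA2, TPH1, CYP26B1 and PROK2 among them changed by less than 2-fold. SCG5, a chaperone of prohormone convertases in secretory granules, had intensities of 312, 306 and 311 in RAW and 129, 102 and 118 in -bFGF and changed by -1.42 ± 0.14 (adjusted p = 1.79e-05), beside the falls of the peptide genes SST1 and GRP. SPINT1, a membrane inhibitor of serine proteases such as matriptase, had 292, 287 and 315 in RAW and 122, 135 and 138 in -bFGF (-1.18 ± 0.12). FYN, a SRC family kinase, had 1138, 1044 and 1065 in RAW and 470.3, 494 and 522 in -bFGF (-1.13 ± 0.089), and ELMO1, which activates RAC with DOCK proteins, had 1322, 1316 and 1570.1 in RAW and 661, 672 and 662 in -bFGF (-1.07 ± 0.080). The groups did not overlap for these 4 genes. YEATS4, a reader of acetylated histones, changed by -1.21 ± 0.062, FKBP14, a prolyl isomerase of the endoplasmic reticulum, by -1.02 ± 0.18, and MPPED2, a metallophosphoesterase, by -1.38 ± 0.16. WFIKKN2, which binds GDF8 and GDF11, changed by -1.24 ± 0.27 and SHISA2, which keeps Wnt and FGF receptors in the endoplasmic reticulum in Xenopus, by -0.87 ± 0.052.

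Several of the rises outside the lists that were looked at are of enzymes. KYNU, which breaks down kynurenine in tryptophan metabolism, had 342, 344 and 334 in RAW and 716, 765 and 698 in -bFGF (1.09 ± 0.099), and TPH1, which starts serotonin synthesis from the same amino acid, had 317, 325 and 372 in RAW and 641, 577 and 617 in -bFGF (0.86 ± 0.11). EPHX1, a microsomal epoxide hydrolase, had 147, 124 and 138 in RAW and 291, 261 and 285 in -bFGF (1.04 ± 0.18), and CYP26B1, which degrades retinoic acid and guards fetal germ cells of the mouse from it, had 295, 222 and 322 in RAW and 543, 495 and 547 in -bFGF (0.94 ± 0.13, adjusted p = 0.000389). The -bFGF arrays lay above all RAW arrays for these 4 genes. RIPK4, a kinase of epithelial differentiation, rose by 1.12 ± 0.11, the secreted proteins EFEMP1 and PROK2 by 1.01 ± 0.14 and 0.97 ± 0.14, and TBCK by 1.07 ± 0.084. All changes in this paragraph and the one before were called with each of the 6 arrays left out.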
